A study of Mus musculus with 11 samples.

Results

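Facial processes of E10.5 mouse embryos that carried mutations in both *Rspo2* and *Wnt9b* (DKO) were compared with facial processes of embryos mutant for *Rspo2* only (Rspo2KO), with 3 RNA-seq libraries on each side out of the 11 in the series. The libraries were taken by their titles, and both groups are labelled as *Rspo2* mutant, of mixed strain and of embryonic day 10.5, so that the label by which they differ is *Wnt9b*. Total RNA came from explants that held the mandibular and maxillary arches and the nasal processes. The series also holds 3 libraries of *Wnt9b* mutants (Wnt9bKO) and 2 of wild type (wt), whose levels are given where they help. Of 20126 autosomal protein-coding genes in the files, 14025 passed the filter on low counts and were tested, and the other genes were too low to test. No label says that each library came from its own embryo, so p-values here measure only the spread between these samples, which may be technical.

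WNT proteins are secreted ligands that bind Frizzled receptors and LRP5 or LRP6, and in the canonical branch they keep β-catenin from being destroyed, so that it can act with TCF and LEF factors on target genes. R-spondins bind LGR receptors and the membrane ubiquitin ligases ZNRF3 and RNF43, which otherwise remove Frizzled receptors, and in this way they raise the response to WNT ligands. In the face, WNT9B is made by the surface ectoderm and RSPO2 is made in the outgrowing processes, and mice without either gene have facial clefts or small jaws.

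Several properties of the libraries ran with the groups. Total counts per library were 13220768 to 17455921 in Rspo2KO and 15821745 to 18017344 in DKO. *Xist*, which is transcribed from the inactive X of females, was at 0.821 to 1.94 CPM, the counts scaled to library size, in Rspo2KO and at 1040 to 1470 CPM in DKO, so the sexes of the groups differed and only autosomal genes are described. Small nuclear RNAs took 0.0389 to 0.0413% of counts in Rspo2KO and 0.00712 to 0.00849% in DKO, and *Malat1*, a nuclear long RNA, took 0.124 to 0.203% and 0.274 to 0.363%. The libraries of wt had the snRNA share of Rspo2KO, with 0.0349 to 0.0354%, and those of Wnt9bKO had that of DKO, with 0.00776 to 0.00818%. This split in RNA classes has the same boundary as the *Wnt9b* label, so a preparation that differed and the genotype cannot be told apart. On the first principal component, which held 47.7% of the variance, Rspo2KO lay at −11.3, −30.9 and −31.3 and DKO at 25.5, 22.0 and 17.1. Transcription factors of the upper face and mesenchyme were present throughout, with summed levels of 2270 to 2500 CPM in Rspo2KO and 2570 to 2760 CPM in DKO, and forebrain and eye markers were present too, with a summed level of 199 to 244 CPM in Rspo2KO and 245 to 324 CPM in DKO. In whole explants, fewer cells of a type and less RNA per cell cannot be told apart.

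The targeted genes were read first. *Wnt9b* (chr11:103727364-103749821, minus strand, GRCm38) was at 14.5, 16.7 and 12.9 CPM in Rspo2KO and at 18.3, 20.2 and 19.8 CPM in DKO. All 3 DKO libraries were above the Rspo2KO libraries, with a log2 fold change of 0.40 ± 0.16 (SE, adjusted p = 0.0917), so gene-level counts did not mark the deleted *Wnt9b* allele. Which exons the allele lacks was not analysed here. *Rspo2* (chr15:43020794-43170826, minus strand) was at 6.59, 4.8 and 4.74 CPM in Rspo2KO and at 4.17, 3.67 and 15.5 CPM in DKO, against 14.8 and 16 CPM in wt. The library labelled DKO 3 had a wild-type level of *Rspo2* and so went against its label, while DKO 1 and DKO 2 lay just below the Rspo2KO libraries. The log2 fold change was 0.54 ± 0.60 (adjusted p = 0.587) and −0.44 without DKO 3 (adjusted p = 0.671).

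The transcriptomes differed in 1230 genes, 8.77% of those tested, where a call needed an adjusted p under 0.05 and a change of more than 1.5-fold. In DKO, 627 genes were higher (4.47%) and 603 were lower (4.3%), and most changes were modest, with median log2 fold changes of 0.80 and −0.81 among them. Changes past 2-fold numbered 162 rises and 181 falls. In 1215 of the 1230 genes the 3 DKO libraries did not overlap the 3 Rspo2KO libraries, as was so for 38% of all genes tested. Rspo2KO 1 was the Rspo2KO library closest to the DKO mean in 69.8% of the called genes and in 48.1% of all genes tested. Leaving out 1 library at a time gave 882 calls without Rspo2KO 3, 886 without Rspo2KO 2, 969 without DKO 2, 1011 without DKO 1 and 1632 without Rspo2KO 1. Without DKO 3, the library at odds with its label, 636 genes were higher and 654 lower, and 1051 of the 1230 genes were still called. Of the called genes that meet the naming rule and are given here, *Dlx5*, *Lhx2*, *Hba-a2*, *Hbb-bt*, *Lyz2* and *Ndrg1* passed the adjusted p no longer without DKO 3, and *Draxin* was then just short of the fold limit.

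**Figure D1:**
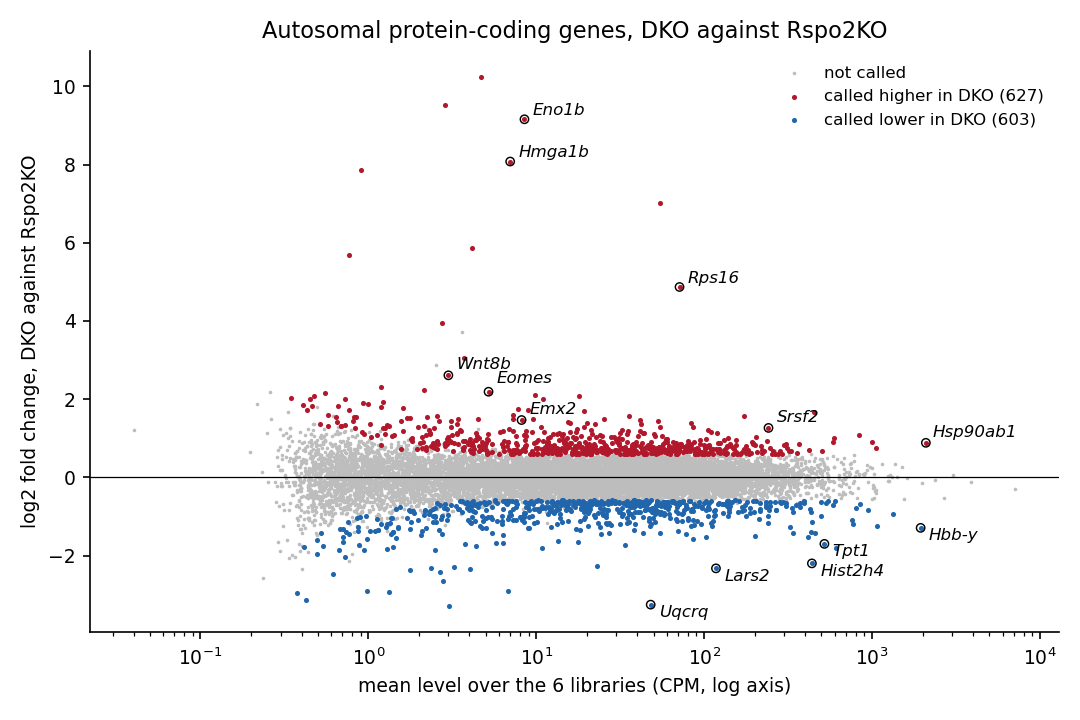
Log2 fold change of DKO against Rspo2KO (vertical axis) for each autosomal protein-coding gene against its mean level over the 6 libraries in CPM (horizontal log axis), with 627 genes called higher in red and 603 called lower in blue. Calls lie on both sides at all levels, and *Rps16*, *Hmga1b* and *Eno1b* are among the largest rises while *Uqcrq* lies lowest among the labelled falls.

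Genes of the WNT pathway were read by role, beside the 8.77% of all genes tested that were called. Among 18 WNT ligands and secretion genes tested, 1 rose and none fell (5.56%), and the median log2 fold change was 0.25, beside −0.01 over all genes tested. The gene that rose was *Wnt8b*, a ligand best known from the developing forebrain. It was at 1.05, 0.789 and 0.695 CPM in Rspo2KO and at 2.94, 5.29 and 7.22 CPM in DKO. All DKO libraries were above all Rspo2KO libraries, at low levels, with a log2 fold change of 2.61 ± 0.64 (adjusted p = 0.0113). The call was lost without Rspo2KO 2 (adjusted p = 0.0541) or Rspo2KO 3 (adjusted p = 0.0579), and 2 ligand genes were called without DKO 3. *Wnt8b* was also uneven within Wnt9bKO, where it was at 0.692, 8.05 and 4.32 CPM. *Wls*, which escorts WNT ligands to the cell surface, was at 75.0 to 86.0 CPM in Rspo2KO and 105 to 109 CPM in DKO and missed the fold limit, with a log2 fold change of 0.42 (adjusted p = 0.00895). *Wnt5a*, a noncanonical ligand of outgrowing mesenchyme, was at 59.5 to 66.3 CPM and 53.6 to 57.8 CPM, and its log2 fold change of −0.17 did not pass (adjusted p = 0.584).

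Among 23 R-spondins, their receptors and WNT receptors, 1 rose and none fell, with a median of 0.03. *Fzd2*, a Frizzled receptor, was at 124, 121 and 107 CPM in Rspo2KO and at 185, 192 and 157 CPM in DKO. The groups did not overlap, and the log2 fold change was 0.60 ± 0.11 (adjusted p = 0.00142). The other R-spondins tested, *Rspo1* and *Rspo3*, had log2 fold changes of 0.03 and 0.30 and did not pass (adjusted p = 0.930 and 0.259). Of the R-spondin receptors, *Lgr4* was at 105 to 112 CPM and 82.5 to 90.2 CPM, with a log2 fold change of −0.31 (adjusted p = 0.0304) that stayed under the fold limit. *Lgr5* was at 7.59 to 8.91 CPM and 4.86 to 5.95 CPM, with no overlap, a log2 fold change of −0.66 and an adjusted p of 0.0804. *Znrf3*, the ubiquitin ligase that R-spondins hold back, was at 44.1, 37.2 and 37.5 CPM in Rspo2KO and at 24.4, 22.7 and 33.9 CPM in DKO. Every DKO library was below every Rspo2KO library, and the log2 fold change of −0.55 (adjusted p = 0.0142) was just short of the fold limit. With an offset for gene length and GC content, *Znrf3* (−0.61, adjusted p = 0.00798) and *Lgr5* (−0.74, adjusted p = 0.0457) were both called lower. The called receptors numbered 3 without DKO 3 and 0 without DKO 2.

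Secreted and membrane antagonists of WNT moved in both directions, with 1 rise and 1 fall among 19 tested and a median of −0.15. *Sfrp1*, which binds WNT ligands outside the cell, was at 108, 128 and 122 CPM in Rspo2KO and at 173, 210 and 183 CPM in DKO. It was higher in every DKO library, with a log2 fold change of 0.66 ± 0.14 (adjusted p = 0.00563). *Draxin*, a secreted inhibitor and axon guidance protein, was at 19, 14.8 and 17.4 CPM in Rspo2KO and at 10.2, 12.5 and 11.3 CPM in DKO. It was lower in every DKO library, by −0.59 ± 0.14 on the log2 scale (adjusted p = 0.00845). *Dkk1*, which blocks LRP5 and LRP6, was at 5.24 to 6.29 CPM and 3.17 to 5.16 CPM and did not pass (log2 fold change −0.49, adjusted p = 0.272). A single call was left without DKO 1, DKO 2, DKO 3, Rspo2KO 1 or Rspo2KO 3.

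Inside the cell, 2 of 25 cytoplasmic components rose and none fell, with a median of −0.08. *Gsk3b*, a kinase of the β-catenin destruction complex, was at 218, 134 and 149 CPM in Rspo2KO and at 279, 270 and 271 CPM in DKO. Rspo2KO 1 lay nearest to DKO, and the log2 fold change was 0.71 ± 0.15 (adjusted p = 0.00398). *Ctnnbip1*, which keeps β-catenin from TCF factors, was at 26.4, 32.4 and 31.3 CPM and at 45.8, 47.6 and 43.6 CPM, a log2 fold change of 0.60 ± 0.10 (adjusted p = 0.00112). *Ctnnb1*, which encodes β-catenin itself, was at 1270 to 1540 CPM and 1360 to 1460 CPM, with a log2 fold change of 0.0034 (adjusted p = 0.989). The cytoplasmic calls fell to 1 without DKO 2, Rspo2KO 1 or Rspo2KO 2. None of 21 nuclear components was called by edgeR or by DESeq2, with a median of 0.08 and 3 genes at an unadjusted p under 0.05 in edgeR, although 4 were called without Rspo2KO 1. Of the 14025 genes tested, 2713 had an adjusted p under 0.05 at any fold. At least as many therefore had an unadjusted p under 0.05, and such counts of this and later lists stand beside that. *Lef1*, the β-catenin partner, was at 30.6, 17.7 and 17.8 CPM in Rspo2KO and at 23.7, 27.6 and 36.0 CPM in DKO, with overlap and an adjusted p of 0.250.

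Planar polarity genes, which orient cells within a sheet, had 3 rises among 15 tested (20% called higher, beside 4.47% of all genes tested), no fall and a median of 0.13. *Vangl2*, a core polarity membrane protein, was at 72.7, 49.6 and 47.6 CPM in Rspo2KO and at 94.7, 102 and 91.3 CPM in DKO. The groups did not overlap, with a log2 fold change of 0.77 ± 0.13 (adjusted p = 0.00133). Its relative *Vangl1* rose by 0.60 (adjusted p = 0.00759), and *Dact3*, a Dishevelled-binding inhibitor of WNT signaling, by 0.67 (adjusted p = 0.0136). With an offset for gene length and GC content, 1 of the 15 genes was called. Without DKO 2, 1 polarity gene was called, and 2 were called without DKO 1, Rspo2KO 1 or Rspo2KO 3.

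Without an offset, no WNT target gene of 23 tested was called by edgeR or by DESeq2, with a median of 0.06. At an unadjusted p under 0.05 in edgeR were 5 genes. *Axin2*, a feedback inhibitor widely used as a readout of canonical WNT activity, was at 53.8, 40.9 and 39.0 CPM in Rspo2KO and at 49.6, 48.0 and 68.3 CPM in DKO. The libraries overlapped and DKO 3 was highest, with a log2 fold change of 0.31 ± 0.19 (adjusted p = 0.279). Of the 5, *Sp8*, *Edn1* and *Fgf8* were higher, and *Znrf3* and *Lgr5*, given above as receptor genes, were lower. *Sp8*, a zinc finger factor of facial ectoderm, was at 15.9 to 18.1 CPM and 21.5 to 29.9 CPM without overlap, and its log2 fold change of 0.57 (adjusted p = 0.0315) was short of the fold limit. *Znrf3* was likewise short of it, at −0.55 (adjusted p = 0.0142), and *Lgr5*, at −0.66, did not pass the adjusted p (0.0804). With the length and GC offset in edgeR, both genes were called lower. *Znrf3* was then at −0.61 (adjusted p = 0.00798) and *Lgr5* at −0.74 (adjusted p = 0.0457). *Msx1*, a homeobox factor of facial mesenchyme, was at 71.4, 72.1 and 67.7 CPM in Rspo2KO and at 52.1, 63.4 and 95.4 CPM in DKO. Its mean hardly differed (log2 fold change −0.0023, adjusted p = 0.997), but the DKO libraries lay on both sides of Rspo2KO. *Msx2* had the same order of DKO libraries, at 5.76, 8.66 and 12.7 CPM against 8.28 to 9.29 CPM, with a log2 fold change of 0.06 (adjusted p = 0.911). Without DKO 3, 2 target genes were called, and without Rspo2KO 1 or Rspo2KO 3, 1 was.

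**Figure D2:**
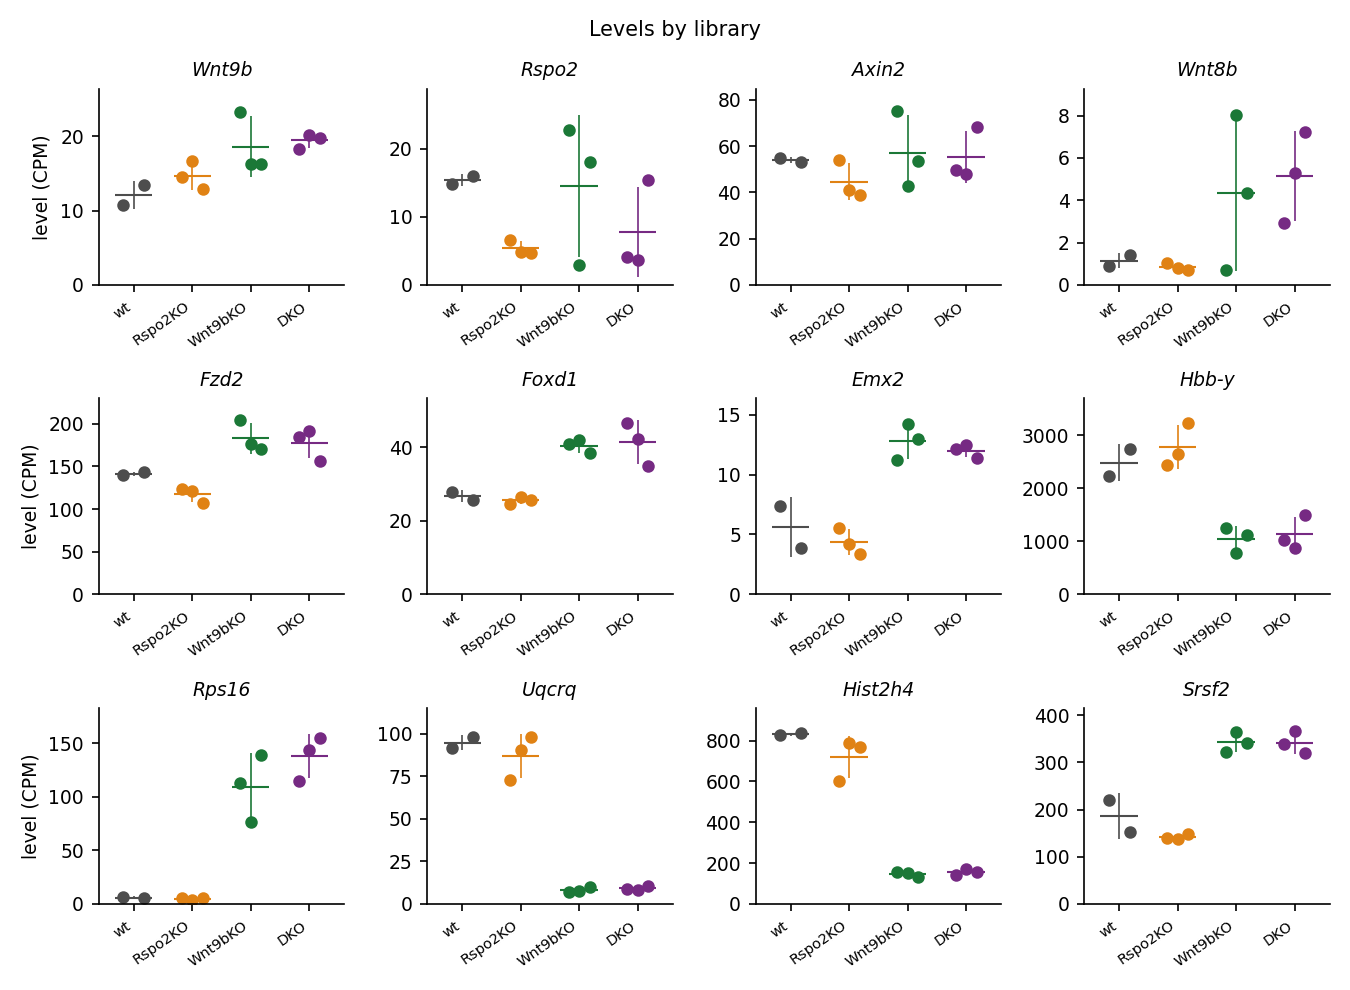
Levels in CPM (vertical axes, from 0) of 12 genes in each library of the 4 groups, with points for libraries, horizontal lines for group means and vertical lines for ± 1 SD. In *Rspo2* the library labelled DKO 3 sits at 15.5 CPM beside wt, whereas *Rps16*, *Uqcrq*, *Hist2h4* and *Srsf2* split wt and Rspo2KO from Wnt9bKO and DKO.

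FGF, BMP and Hedgehog signals also act in facial outgrowth. In the FGF pathway, 1 of 27 genes rose (3.7%, beside 8.77% of all genes tested). *Fgf15*, a ligand of the forebrain and neural tube, was at 8.31, 4.8 and 3.35 CPM in Rspo2KO and at 14.5, 11.5 and 8.74 CPM in DKO. The lowest DKO library lay close to the highest Rspo2KO library, with a log2 fold change of 1.09 ± 0.35 (adjusted p = 0.0439), and the call was lost without any of DKO 1, DKO 2, Rspo2KO 2 or Rspo2KO 3. *Fgf8*, the ligand of the facial ectoderm, was at 5.62, 6.19 and 4.86 CPM in Rspo2KO and at 6.11, 6.98 and 11 CPM in DKO. It overlapped between groups and did not pass (log2 fold change 0.53 ± 0.24, adjusted p = 0.137). *Fgf10*, a mesenchymal ligand, was at 6.98 to 7.71 CPM and 8.01 to 9.59 CPM and did not pass either (log2 fold change 0.24, adjusted p = 0.420).

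In the BMP and TGF-β pathway, 4 of 44 genes rose and 1 fell (11.4% called), with a median of 0.10. *Id4*, a BMP-responsive inhibitor of helix-loop-helix factors, was at 33.1, 41.3 and 34.5 CPM in Rspo2KO and at 72.4, 94.9 and 59.4 CPM in DKO. Every DKO library was above Rspo2KO, with a log2 fold change of 1.06 ± 0.18 (adjusted p = 0.00108). Among inhibitors, *Smad7* rose by 0.90 (adjusted p = 0.00267) and the BMP-binding protein *Nog* by 0.81 (adjusted p = 0.00721). The BMP antagonist *Grem1*, named after its values were seen, rose by 0.88 (adjusted p = 0.0189). The calls numbered 3 without DKO 1 or Rspo2KO 3. Without an offset, no Hedgehog gene of 16 was called by edgeR or by DESeq2, with a median of 0.21. At an unadjusted p under 0.05 in edgeR were 8 genes, beside at least 2713 of the 14025 genes tested. *Gas1*, looked up after its values were seen, was short of the fold limit, at 0.57 (adjusted p = 0.0133). With the length and GC offset *Gas1* was called higher, at 0.62 (adjusted p = 0.00258). There were 2 Hedgehog calls without Rspo2KO 1 and 1 call without DKO 1, DKO 3, Rspo2KO 2 or Rspo2KO 3.

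Facial patterning factors were called at about the share of all genes tested (8.77%), and those called were higher. Among 25 mandibular patterning genes 21 had a positive log2 fold change, 2 rose and none fell. Their median was 0.26, beside −0.01 over all genes tested. *Dlx5*, which specifies the lower jaw, was at 4.87, 2.73 and 1.39 CPM in Rspo2KO and at 6.34, 4.67 and 6.31 CPM in DKO. Its libraries overlapped, and the call (log2 fold change 0.97 ± 0.32, adjusted p = 0.0472) was lost without any of the DKO libraries, Rspo2KO 2 or Rspo2KO 3. Among 40 factors of the upper face and mesenchyme, 4 rose and none fell, with a median of 0.14. *Foxd1*, a forkhead factor, was at 24.6, 26.4 and 25.5 CPM in Rspo2KO and at 46.6, 42.3 and 34.8 CPM in DKO, a log2 fold change of 0.69 ± 0.11 (adjusted p = 0.000798). *Pbx2*, a homeobox cofactor, rose by 0.59 (adjusted p = 0.000662), and *Sox6*, an SRY-box factor of chondrogenic mesenchyme, by 0.59 (adjusted p = 0.0146). Other upper face genes passed the adjusted p but not the fold limit, in both directions. *Foxf1* (−0.49, adjusted p = 0.0499) and *Sox5* (−0.38, adjusted p = 0.0251) were lower. *Tfap2b* (0.53, adjusted p = 0.00406) and *Zeb1* (0.50, adjusted p = 0.00813) were higher. The mandibular calls fell to 1 without DKO 1, Rspo2KO 2 or Rspo2KO 3 and reached 4 without Rspo2KO 1, and those of the upper face fell to 1 without DKO 2 or Rspo2KO 3 and to 2 without Rspo2KO 2.

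Of the cell types that an explant can hold, red blood cells had the list with the highest share of calls. Among 14 erythroid markers, 10 were lower and none was higher, which is 71.4% against 8.77% of all genes tested, and the median was −0.87. *Hbb-y*, an embryonic β-globin, was at 2430, 2640 and 3230 CPM in Rspo2KO and at 1030, 871 and 1490 CPM in DKO. Every DKO library was below every Rspo2KO library, by −1.29 ± 0.21 on the log2 scale (adjusted p = 0.000702). The embryonic α-globin *Hba-x* was at 1040, 1080 and 1120 CPM and at 481, 391 and 543 CPM, with a log2 fold change of −1.20 ± 0.17 (adjusted p = 0.000362). *Tal1*, a transcription factor of blood formation, was at 12.3 to 15.7 CPM and 7.41 to 8.44 CPM, with a log2 fold change of −0.79 (adjusted p = 0.00146). Summed over the markers, the erythroid level was 4630 to 5960 CPM in Rspo2KO and 1830 to 2960 CPM in DKO, against 4070 to 5060 CPM in wt and 1880 to 2520 CPM in Wnt9bKO. No defining globin was at 0. The part of red cell content in the other results was not tested. The erythroid calls numbered 6 without DKO 2, Rspo2KO 2 or Rspo2KO 3. The adult α-globin pair cannot be read by copy, because *Hba-a2* shares 89.3% of its 50-base stretches with other genes. *Hba-a2* was at 36.1, 36.1 and 42.8 CPM in Rspo2KO and at 18.1, 2.93 and 2.79 CPM in DKO, while *Hba-a1* had a log2 fold change of 0.0023 (adjusted p = 0.996). The adult β-globin pair also shares sequence, 58.3% in *Hbb-bt* and 53.2% in *Hbb-bs*. *Hbb-bt* had a log2 fold change of −1.80 (adjusted p = 0.0386) and *Hbb-bs* of 0.62 (adjusted p = 0.238). The 10 lower markers include *Hba-a2* and *Hbb-bt*.

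Forebrain and eye markers had 3 rises among 17 tested (17.6% called higher, beside 4.47% of all genes tested), no fall and a median of 0.39. *Emx2*, a homeobox factor of the dorsal forebrain, was at 5.54, 4.19 and 3.35 CPM in Rspo2KO and at 12.1, 12.5 and 11.4 CPM in DKO. The groups were well apart, with a log2 fold change of 1.47 ± 0.22 (adjusted p = 0.00043). *Lhx2*, a LIM homeobox factor of forebrain and eye, rose by 0.68 (adjusted p = 0.0376), and *Rax*, the retinal homeobox factor, by 0.69 (adjusted p = 0.0492). A single forebrain call was left without any of DKO 1, DKO 2, Rspo2KO 2 or Rspo2KO 3. *Eomes*, a T-box factor of cortical progenitors and other tissues that is no list member, was among the 8 largest rises of the naming rule, at 1.95, 1.82 and 1.83 CPM in Rspo2KO and 5.87, 8.03 and 11.7 CPM in DKO. Every DKO library was above every Rspo2KO library, with a log2 fold change of 2.19 ± 0.33 (adjusted p = 0.000411). The share of neural tissue in these changes was not tested.

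The other cell type counts stand beside 8.77% of all genes tested called (4.47% higher and 4.3% lower). In surface epithelium 1 of 18 markers rose, *Grhl3*, a grainyhead factor of the ectoderm. It was at 4.64, 5.16 and 2.53 CPM in Rspo2KO and at 8.93, 8.78 and 11.1 CPM in DKO, with no overlap and a log2 fold change of 1.23 ± 0.23 (adjusted p = 0.00248), and 2 markers were called without DKO 1, Rspo2KO 1 or Rspo2KO 2. Short of the fold limit, *Trp63* (0.54, adjusted p = 0.024) and *Cldn7* (0.55, adjusted p = 0.0469) were higher and *Krt8* (−0.41, adjusted p = 0.0395) was lower. With the length and GC offset *Cldn7* was called (0.66, adjusted p = 0.0175). Among 17 endothelial markers, *Plvap*, a protein of fenestrated vessels, rose by 0.84 (adjusted p = 0.00629), with 2 markers called without DKO 3 and 4 without Rspo2KO 1. The only other endothelial markers that passed the adjusted p were lower and short of the fold limit. They were *Emcn* (log2 fold change −0.58, adjusted p = 0.0246) and *Egfl7* (−0.45, adjusted p = 0.00756). With the length and GC offset *Emcn* was called lower (−0.62, adjusted p = 0.00607). Among 13 macrophage markers 3 were lower (23.1%, beside 4.3% of all genes tested) and none was higher. The signaling adaptor *Tyrobp* was at 2.32, 3.04 and 3.66 CPM in Rspo2KO and at 1.23, 0.872 and 1.15 CPM in DKO. Its DKO libraries were all lower, with a log2 fold change of −1.47 ± 0.29 (adjusted p = 0.0032). The summed macrophage level was 80.1 to 94.0 CPM and 69.6 to 75.4 CPM, and 1 marker was called without DKO 1, Rspo2KO 2 or Rspo2KO 3. Of 10 neural crest and glia markers, the fatty acid binding protein *Fabp7* was lower (log2 fold change −0.79, adjusted p = 0.013), and its call was lost without DKO 1, DKO 2, Rspo2KO 2 or Rspo2KO 3. None of 22 neuron markers was called by edgeR or by DESeq2, with a median of −0.03 and 2 at an unadjusted p under 0.05 in edgeR. None of 12 muscle and heart markers was called by edgeR, with a median of −0.46 and 1 at an unadjusted p under 0.05, and DESeq2 called 1.

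**Figure D3:**
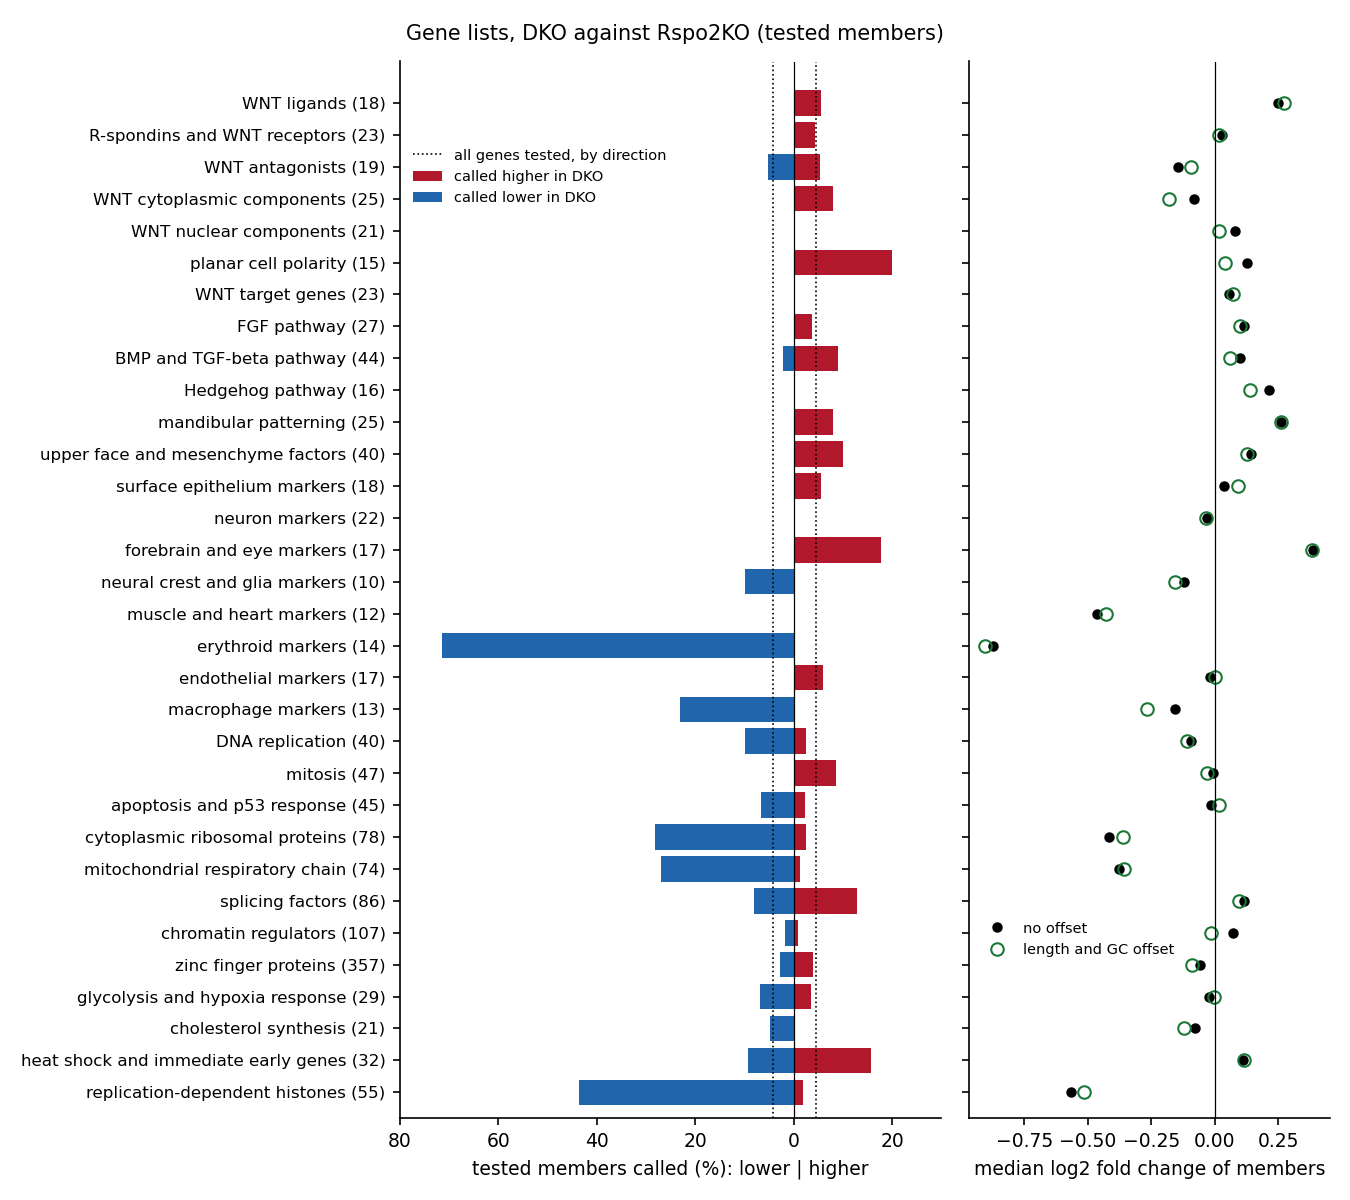
Share of tested members called higher (red, to the right) or lower (blue, to the left) in DKO for each gene list, with the number tested in brackets and dotted lines at the 4.47% and 4.3% of all genes tested, and beside it the median log2 fold change of each list without and with the length and GC offset. Erythroid markers reach 71.4% lower, and the histone, ribosomal protein and respiratory chain lists also lie to the left.

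Calls among genes of protein synthesis and respiration were mostly falls, beside 4.3% of all genes tested that were lower. Of 78 cytoplasmic ribosomal protein genes, 22 were lower and 2 were higher (30.8% called), with a median of −0.41. *Rpl28*, of the large subunit, was at 141, 162 and 155 CPM in Rspo2KO and at 73.6, 78.3 and 83 CPM in DKO. The groups were apart, with a log2 fold change of −0.96 ± 0.09 (adjusted p = 9.09e-06). The calls numbered 14 without DKO 1 or Rspo2KO 2, 15 without DKO 2 and 16 without Rspo2KO 3. Only 6 of the 78 genes share under 5% of their 50-base stretches with other genes, and 1 of those 6 was lower, so reads of this family may be split among copies. Of 74 respiratory chain genes, 20 were lower and 1 was higher (28.4% called), with a median of −0.38. *Uqcrq*, a subunit of complex III, was at 72.8, 90.3 and 97.9 CPM in Rspo2KO and at 8.69, 7.97 and 10.7 CPM in DKO. It was lower in every DKO library, by −3.25 ± 0.16 on the log2 scale (adjusted p = 1.55e-08), and shares no 50-base stretch with another gene. *Cyc1*, the cytochrome c1 subunit of the same complex, was at 137, 176 and 157 CPM and at 64.9, 66.1 and 67.7 CPM, with a log2 fold change of −1.24 ± 0.11 (adjusted p = 3.16e-06). The other called members were of complexes that include complex I, where *Ndufa8* was lower by −1.20 (adjusted p = 8.69e-06). Among the 55 respiratory genes that share under 5% of their stretches, 15 were lower and 1 higher.

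The ribosomal gene *Rps16* moved against its family. *Rps16* (chr7:28350652-28353155, plus strand, GRCm38), a protein of the small subunit, was at 5.69, 3.4 and 5.18 CPM in Rspo2KO and at 115, 144 and 155 CPM in DKO. The split was complete, a log2 fold change of 4.87 ± 0.24 (adjusted p = 1.55e-08), and it lay along the *Wnt9b* label, with 6.61 and 5.01 CPM in wt and 113, 76.6 and 139 CPM in Wnt9bKO. Its coding sequence is the same at 438 of 438 bases as the processed pseudogene *Rps16-ps2*, which had 0 CPM in wt and Rspo2KO and 0.0587, 0.125 and 0.121 CPM in DKO, and 33.7% of its 50-base stretches occur in other genes. Exon 5 is printed from the GENCODE M21 transcript because it lies in the coding sequence that both copies share, with the first 50 bases, the length of a read, in capitals (chr7:28352494-28352636, plus strand).
*Rps16* exon 5: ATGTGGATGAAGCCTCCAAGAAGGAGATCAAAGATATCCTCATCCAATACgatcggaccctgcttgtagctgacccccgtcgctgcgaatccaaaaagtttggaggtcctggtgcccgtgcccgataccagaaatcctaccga

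*Hmga1b*, an intronless gene that encodes a chromatin architecture protein, had 0, 0 and 2 counts in Rspo2KO and 161, 371 and 153 counts in DKO. With so few counts the ratio of the summed CPM was 316, with an exact 95% interval of 87.0 to 2610 that covers counting error only. *Hmga1b* was at 0 and 1 counts in wt and at 331, 194 and 200 counts in Wnt9bKO. Its coding sequence is the same at 321 of 321 bases as that of *Hmga1*, and 89.0% of its 50-base stretches occur in *Hmga1*. The parent *Hmga1* was at 63.7, 68.8 and 56.5 CPM in Rspo2KO and at 92.0, 85.2 and 104 CPM in DKO, so *Hmga1b* was low beside its parent in all groups. The stretch from the start codon (capitals) is printed for both genes from GENCODE M21 because it shows that 50-base reads from it cannot be assigned to 1 of them (*Hmga1*, chr17:27559569-27559703 and *Hmga1b*, chr11:120762889-120763023, both plus strand, GRCm38).
*Hmga1* exon 3: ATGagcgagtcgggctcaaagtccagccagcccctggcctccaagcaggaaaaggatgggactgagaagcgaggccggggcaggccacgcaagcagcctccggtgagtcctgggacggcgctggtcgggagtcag
*Hmga1b* exon 1: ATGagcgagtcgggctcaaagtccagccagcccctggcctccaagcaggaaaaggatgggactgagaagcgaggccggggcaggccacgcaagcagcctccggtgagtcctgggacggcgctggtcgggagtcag

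Genes with such copies made up a larger share of the calls than of the genes tested. At least 5% of their 50-base stretches were shared with another gene in 11.6% of genes tested and in 18% of genes called, and leaving them out gave 544 rises and 469 falls among 12393 genes. Above 20% shared, 14% of genes were called lower and 4.8% higher. *Eno1b*, an enolase copy that shares 85.2%, had 0, 1 and 0 counts in Rspo2KO and 160, 419 and 255 counts in DKO, a CPM ratio of 768 with an exact 95% interval of 138 to 30400. Its relative *Eno1*, a glycolytic enolase, went the other way, at 573, 721 and 687 CPM and at 276, 327 and 398 CPM, with a log2 fold change of −0.99 ± 0.15 (adjusted p = 0.000452). *Sycp1*, a protein of the meiotic synaptonemal complex named after its values were seen, shares 5.47% and had more than 1 count in the 3 DKO libraries and in no other library. It had no count in any Rspo2KO library and 86, 133 and 64 counts in DKO, at least 25.5-fold higher against a floor of 3 counts per library (adjusted p = 5.19e-06). In wt *Sycp1* had 0 and 1 counts and in Wnt9bKO 1, 1 and 0 counts, yet the test of the difference between the comparisons did not pass (adjusted p = 0.435). *Hydin*, a protein of motile cilia also named after its values were seen, was at 0.899, 0.607 and 1.01 CPM in Rspo2KO and at 148, 0.685 and 177 CPM in DKO. It was called (adjusted p = 0.00499) although DKO 2 was at the level of Rspo2KO. In all, 9 called rises had 3 counts or fewer in every Rspo2KO library, and 1 called fall had so in every DKO library.

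The largest rises of the naming rule also included *Taf13*, *Spint2* and *Sncg*. *Taf13*, a subunit of the general transcription factor TFIID, was at 8.54, 5.83 and 6.32 CPM in Rspo2KO and at 25.3, 29.9 and 31.4 CPM in DKO. The groups were well apart, with a log2 fold change of 2.07 ± 0.15 (adjusted p = 5.2e-07), and *Taf13* shares 7.62% of its stretches. *Spint2*, an inhibitor of epithelial serine proteases, was at 5.62, 3.76 and 3.85 CPM and at 17.4, 18.4 and 16.8 CPM, a log2 fold change of 2.00 ± 0.23 (adjusted p = 4.58e-05). *Sncg*, γ-synuclein, rose by 2.10 (adjusted p = 0.00252). Zinc finger genes, many of them repressors in tandem clusters, were mixed, with 14 rises and 10 falls among 357 tested. Over all genes tested 4.47% were higher and 4.3% lower. *Zfp990* was at 0.3, 0.425 and 0.253 CPM in Rspo2KO and at 3.58, 7.10 and 4.86 CPM in DKO, a log2 fold change of 3.95 ± 0.37 (adjusted p = 6.89e-06), with 29.1% of its stretches shared. Without Rspo2KO 2 or Rspo2KO 3, 14 zinc finger genes were called.

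Among the largest falls, *Lars2*, the mitochondrial leucyl-tRNA synthetase, was at 159, 96.5 and 333 CPM in Rspo2KO and at 41.4, 32.2 and 43.8 CPM in DKO. The Rspo2KO libraries were far apart but all above DKO, with a log2 fold change of −2.33 ± 0.35 (adjusted p = 0.000439). *Tpt1*, the abundant translationally controlled tumor protein, was at 662, 874 and 853 CPM and at 209, 213 and 313 CPM, with a log2 fold change of −1.70 ± 0.20 (adjusted p = 4.8e-05). *Qdpr*, which recycles the cofactor tetrahydrobiopterin, was lower by −1.73 (adjusted p = 5.17e-07), the phosphatase *Acp5* by −1.69 (adjusted p = 6.13e-05) and the ciliary transition zone protein *B9d2* by −1.68 (adjusted p = 1.94e-05).

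Replication-dependent histone genes, whose mRNAs end in a stem-loop in place of a poly(A) tail, had 24 falls and 1 rise among 55 tested (45.5% called, beside 8.77% of all genes tested, of which 4.3% were lower), with a median of −0.57. *Hist2h4*, which encodes histone H4 and shares 1.01% of its stretches, was at 602, 788 and 770 CPM in Rspo2KO and at 143, 170 and 158 CPM in DKO. The groups were far apart, with a log2 fold change of −2.20 ± 0.12 (adjusted p = 5.89e-08). Summed histone levels were 14900 to 19700 CPM in Rspo2KO and 9330 to 12700 CPM in DKO. Only 6 of the genes share little sequence, and 2 of these were lower. Histone calls numbered 17 without Rspo2KO 2. The snRNAs, which like histone mRNAs lack a poly(A) tail, were lower in DKO as given above, and the part of library preparation in the histone values was not tested.

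Genes of the cell cycle did not move as a block, and their counts stand beside 8.77% of all genes tested called (4.47% higher and 4.3% lower). In DNA replication 4 of 40 genes were lower and 1 was higher, with a median of −0.09. *Pold2*, a subunit of DNA polymerase δ, was at 61.3, 70.4 and 78.2 CPM in Rspo2KO and at 33.5, 32.9 and 28.3 CPM in DKO, with no overlap and a log2 fold change of −1.15 ± 0.12 (adjusted p = 1.63e-05). *Mcm2*, of the replicative helicase, was lower by −0.74 (adjusted p = 0.000269). The calls numbered 2 without Rspo2KO 2 and 3 without DKO 1. In mitosis 4 of 47 genes rose and none fell, with a median of −0.01. *Pttg1*, the securin that holds sister chromatids together, was at 18.6, 23.4 and 23.8 CPM in Rspo2KO and at 38.6, 70.1 and 75.1 CPM in DKO. All DKO libraries were higher, with a log2 fold change of 1.48 ± 0.22 (adjusted p = 0.000433). *Plk1*, a mitotic kinase, rose by 0.90 (adjusted p = 0.000115). Other mitosis genes, looked up after their values were seen, passed the adjusted p but not the fold limit. *Mki67* (−0.53, adjusted p = 0.0143), *Bub3* (−0.52, adjusted p = 0.00375) and *Ccnb2* (−0.36, adjusted p = 0.0222) were lower. *Aurka*, *Cenpf*, *Ndc80*, *Smc2* and *Espl1* were higher. *Mki67* was at 1160 to 1230 CPM in Rspo2KO and 708 to 983 CPM in DKO. With the length and GC offset it was called lower (−0.62, adjusted p = 0.00501).

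Of 45 genes of apoptosis and the p53 response, 3 were lower and 1 rose, with a median of −0.01. That is near the 8.77% of all genes tested that were called. *Trp53*, the p53 gene, was at 65.2, 51.9 and 49.7 CPM in Rspo2KO and at 99.3, 109 and 108 CPM in DKO. It was higher in every DKO library, with a log2 fold change of 0.92 ± 0.13 (adjusted p = 0.000254). *Casp6*, an effector caspase, was at 31.9, 38.7 and 39.8 CPM and at 14.5, 15 and 18.6 CPM, with a log2 fold change of −1.20 ± 0.15 (adjusted p = 7.8e-05). *Cdkn1a*, the cell cycle inhibitor that p53 induces, is named after its values were seen and was at 6.37, 7.59 and 6.32 CPM and at 2.23, 1.99 and 4.01 CPM. Its DKO libraries were all lower, by −1.30 on the log2 scale (adjusted p = 0.00135), so *Trp53* and this 1 target moved in opposite directions. Other members of the list went either way, short of the fold limit. *Tnfrsf10b* was higher (0.49, adjusted p = 0.0358) and *Btg2* was lower (−0.35, adjusted p = 0.0456).

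RNA processing and stress genes moved both ways, and the counts of each list stand beside 8.77% of all genes tested called. Of 86 splicing factors, 11 rose and 7 fell, with a median of 0.12. *Srsf2*, an SR protein, was at 140, 138 and 148 CPM in Rspo2KO and at 339, 366 and 320 CPM in DKO. The split was complete, with a log2 fold change of 1.26 ± 0.12 (adjusted p = 1.09e-05). The splicing regulators *Hnrnpk* and *Tra2a* rose by 0.90 (adjusted p = 6.51e-05) and 0.82 (adjusted p = 1.68e-05), whereas the falls, looked up after their values were seen, included *Snrpd2* and *Snrpb*, core proteins of the spliceosomal snRNPs, with log2 fold changes of −0.90 (adjusted p = 0.000446) and −0.67 (adjusted p = 0.000631). Other snRNP protein genes went the other way, and *Snrpd1* rose by 0.61 (adjusted p = 0.00491) and *Snrnp70* by 0.69 (adjusted p = 0.0138). Of 32 heat shock and immediate early genes, 5 rose and 3 fell. The chaperone *Hsp90ab1* was at 1440, 1440 and 1540 CPM in Rspo2KO and at 2730, 2860 and 2550 CPM in DKO, a log2 fold change of 0.88 ± 0.13 (adjusted p = 0.000279). *Hspa8*, which works with HSP90, went the other way, with a log2 fold change of −0.94 ± 0.15 (adjusted p = 0.00064). Of 107 chromatin regulators, 1 rose and 2 fell, the latter with *Hdac1*, a histone deacetylase, at 87.8, 107 and 109 CPM and at 36.5, 35.2 and 46.3 CPM (log2 fold change −1.37 ± 0.13, adjusted p = 9.09e-06), though 35.3% of its stretches are shared. Heat shock calls numbered 5 without Rspo2KO 3, and chromatin calls 8 without Rspo2KO 1. Of 29 glycolysis and hypoxia genes 1 rose and 2 fell, and of 21 cholesterol synthesis genes only *Dhcr7*, the last enzyme of the pathway, was lower (log2 fold change −0.70, adjusted p = 0.00441). The glycolysis calls numbered 7 without Rspo2KO 1 and 2 without DKO 2 or Rspo2KO 2, and the cholesterol calls 2 without DKO 1, Rspo2KO 1 or Rspo2KO 3.

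The share of falls was highest among short genes. When genes were split by exonic length into 4 bins of like size, in the shortest bin, 102 to 2843 bases, 9.58% of genes were lower and 3.93% higher, and in the longest bin, 6886 to 123179 bases, 1.28% were lower and 4.17% higher. Falls also grew with GC content, from 2.48% in the lowest of 4 bins to 6.42% in the highest. With an offset for length and GC content, 580 genes were higher and 583 lower, and 1059 of the 1230 genes were still called. The trend of falls with length was smaller but remained, with 275 of 3508 genes lower in the shortest bin and 74 of 3505 in the longest, and median log2 fold changes of −0.10 and −0.01. Rises, 138 in the shortest and 146 in the longest bin without the offset, were 159 and 93 with it. Calls in both directions were thus more frequent among the shortest than among the longest genes after the offset.

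**Figure D4:**
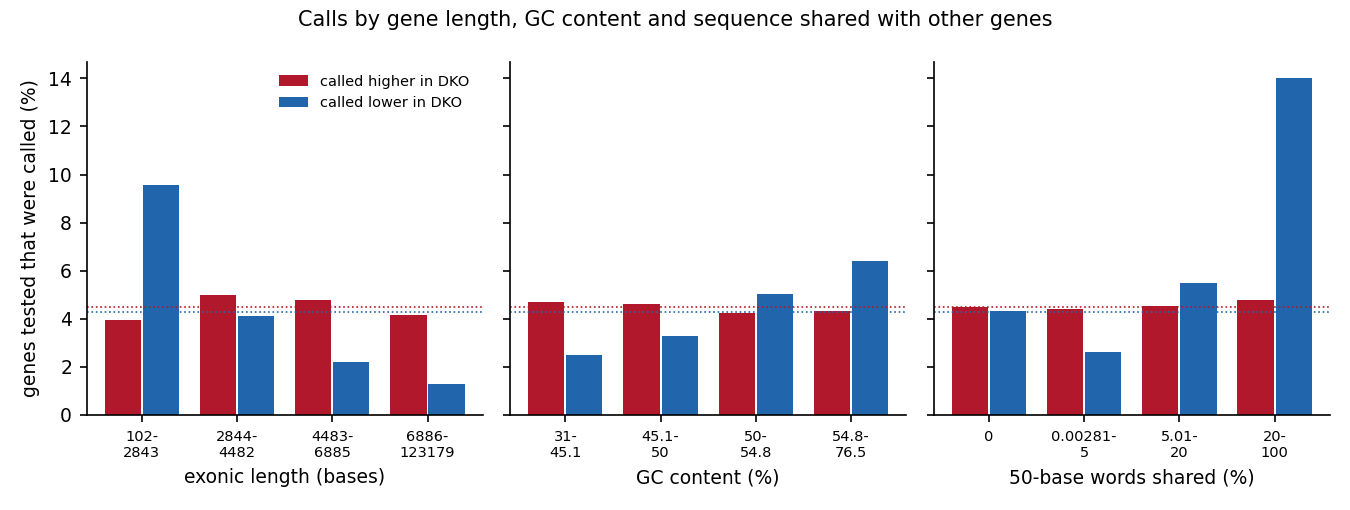
Share of genes tested that were called higher (red) or lower (blue) in DKO, in percent from 0, by 4 bins of exonic length in bases, by 4 bins of GC content and by the share of 50-base stretches found in other genes, with dotted lines for all genes tested. Falls drop from 9.58% in the shortest bin to 1.28% in the longest, and they reach 14% where over 20% of the sequence is shared.

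The comparison of Wnt9bKO with wt has no library in common with that of DKO with Rspo2KO and has the same difference in the *Wnt9b* label and in RNA classes. The sexes went the opposite way, with *Xist* at 680 and 906 CPM in wt and at 1.56 to 1.85 CPM in Wnt9bKO. Wnt9bKO and wt differed in 2915 genes, of which 1563 were higher and 1352 lower in Wnt9bKO. Both comparisons called 946 genes, which is 76.9% of the calls in DKO against Rspo2KO and 32.5% of the others, and 945 of them had 1 direction. Among the 1230 genes called in DKO, 98.2% had the same sign in Wnt9bKO against wt, beside 79.3% of all genes tested. Across genes, which are not independent, the log2 fold changes had a Pearson r of 0.73 and a Spearman rho of 0.739. *Uqcrq* shows the pattern, with 91.5 and 97.7 CPM in wt and 7.08, 7.33 and 9.84 CPM in Wnt9bKO. Wnt9bKO 2 had *Rspo2* at 2.86 CPM, against 22.8 and 18.1 CPM in the other Wnt9bKO libraries, and so went against its label. Without Wnt9bKO 2, both comparisons called 934 genes, 933 of them in 1 direction, and without DKO 3 as well they called 1013, of which 1011 went 1 way. Of the 284 genes called with all libraries in DKO against Rspo2KO only, 263 had the same sign in the other comparison.

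A test of the difference between the comparisons asked which changes depended on the *Rspo2* label. The same contrast sets DKO and wt, both high in *Xist*, against Rspo2KO and Wnt9bKO, both low in it. Dependence on the *Rspo2* label and a difference between the sexes therefore cannot be told apart by this test. The test passed in 1 gene, 0.00713% of those tested, with 1294 genes at an unadjusted p under 0.05, and DESeq2 called 19. Leaving out 1 library at a time, no gene passed without DKO 2, DKO 3, Rspo2KO 1 or Rspo2KO 2 in edgeR, with 947, 1124, 821 and 1589 genes at an unadjusted p under 0.05, and 5 passed without DKO 1. Without Wnt9bKO 2, 2 genes passed, as without both Wnt9bKO 2 and DKO 3. The gene called with all libraries was *Cdk5rap1*, which encodes a mitochondrial tRNA-modifying enzyme. *Cdk5rap1* was at 14, 15.4 and 11.1 CPM in Rspo2KO and at 8.22, 7.72 and 8.25 CPM in DKO, and at 7.59 and 9.12 CPM in wt and 17.1, 11.6 and 14.7 CPM in Wnt9bKO. It fell by 0.74 in DKO against Rspo2KO (adjusted p = 0.0072) and rose by 0.78 in Wnt9bKO against wt (adjusted p = 0.00659), a difference of −1.53 on the log2 scale (adjusted p = 0.0452). The next genes by p did not pass. *Ltbp4*, a matrix protein that binds latent TGF-β, had a difference of −1.69 (adjusted p = 0.114) and the WNT antagonist *Sfrp2* one of −1.0 (adjusted p = 0.195). *Hoxa2*, the homeobox gene of the second arch, was at 6.74, 7.59 and 7.01 CPM in Rspo2KO, 1.12, 4.98 and 4.67 CPM in DKO, 4.73 and 5.07 CPM in wt and 0.160, 0.358 and 0 CPM in Wnt9bKO. All Wnt9bKO libraries were near 0 and the DKO libraries lay below those of Rspo2KO, but neither the fall in DKO (adjusted p = 0.0894) nor the difference of 3.78 (adjusted p = 0.268) passed.

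**Figure D5:**
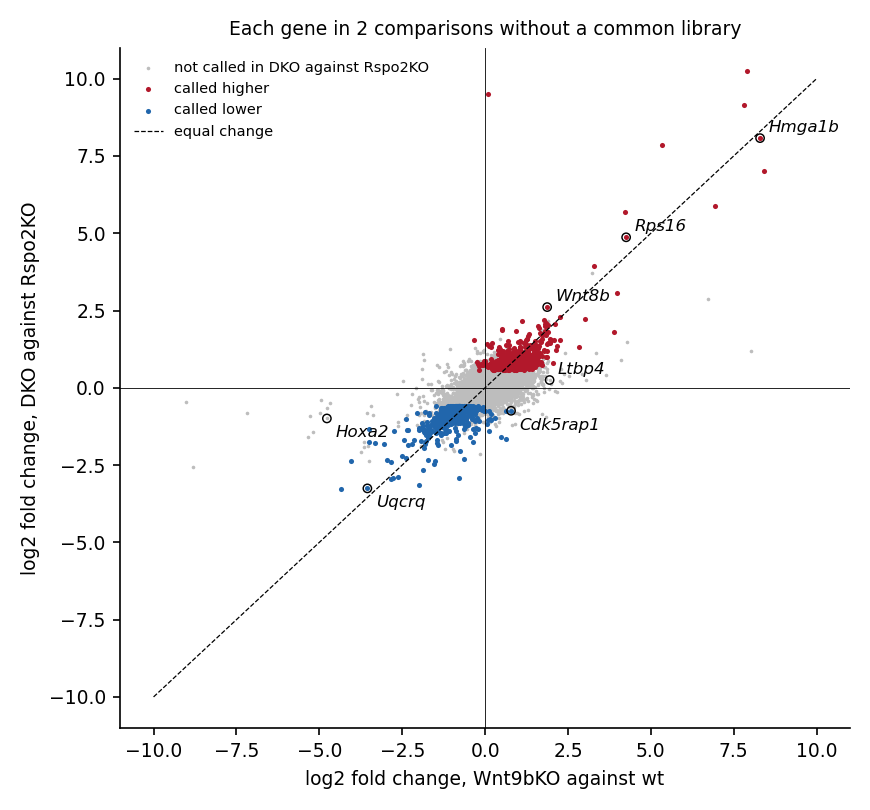
Log2 fold change of DKO against Rspo2KO (vertical axis) and of Wnt9bKO against wt (horizontal axis) for each autosomal protein-coding gene, with calls of the former in red and blue and a dashed line of equal change. Most called genes lie along that line (Pearson r of 0.73 over all genes tested), and *Cdk5rap1* is off it in the lower right.

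Around the deleted locus, calls went both ways. Within 10 Mb of *Wnt9b* on chromosome 11, 281 genes were tested, of which 16 were higher and 18 lower (12.1% against 8.77%). The largest shifts there, named after their values were seen, were those of *Asb16*, a substrate adaptor of ubiquitin ligases, with a log2 fold change of 1.84 (adjusted p = 0.0214), and of the lipid transporter gene *Abca6* with −2.46 (adjusted p = 0.00223).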

How the data were processed

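Gene counts were deposited per library; the authors made them from single-end 50-base reads by adapter trimming (Cutadapt), mapping to GRCm38 (STAR) and counting per gene (HTSeq-Count). Versions, strand and multi-mapping settings are not given in the sources used here. Genes without an annotation entry took 0.376 to 0.686% of counts. The members and gene lists were chosen with earlier results of these data known. Counts of all 11 libraries were fitted with edgeR 4.0.16 (R 4.3.3; quasi-likelihood test, TMM factors, filterByExpr on genotype) with a mean per genotype. P-values were adjusted by Benjamini-Hochberg over 17317 genes. A call needed an adjusted p under 0.05 and a change over 1.5-fold. Levels are CPM on TMM-scaled library sizes. The difference between comparisons was an interaction term. DESeq2 1.42.0 was an alternative. Length, GC content and 50-base words shared between genes came from GENCODE M21 (GRCm38), matched for 36723 of 38561 genes.

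Named were *Wnt9b*, *Rspo2*, *Axin2*, *Fgf8*, *Fgf10*, *Msx1* and *Msx2*, the 8 largest called rises and falls at a mean of at least 5 CPM without overlap or a Gm, Rik or histone name, up to 3 called members per list by p, and the 5 smallest interaction p. Tested on simulated data over 16973 genes, edgeR recovered 19 of 50 genes changed 1.5-fold, 35 of 50 changed 2-fold and 47 of 50 changed 4-fold, with 6 false calls. These counts used the adjusted p alone, without the fold limit. The simulation had 200 changed genes, otherwise equal means in all groups and no length trend. It therefore does not give the recovery or false calls of the real comparison. Alternatives were other normalizations and filters, only the 6 libraries, a replicate block, a length and GC offset, a test against the fold limit and leaving out each library. Fits without genes that share words and without Wnt9bKO 2 were added after seeing the data. Sex-linked and noncoding genes were left out of the counts of calls. Some genes that meet the naming rule are not reported here.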

Additional observations from a re-analysis of the deposited data

Results flagged for a closer look

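*Cdk5rap1* differed between the comparisons by the interaction test, in which the *Rspo2* label and sex cannot be told apart. It fell in DKO against Rspo2KO and rose in Wnt9bKO against wt, a difference of −1.53 on the log2 scale (edgeR, adjusted p = 0.0452). All 3 DKO libraries were below all 3 Rspo2KO libraries, and all 3 Wnt9bKO libraries were above both wt libraries. The difference lay between −1.65 and −1.44 when 1 library was left out, with adjusted p from 0.0332 without Rspo2KO 3 to 0.162 without DKO 2. The adjusted p was 0.0946 with the replicate block, 0.0541 with the length and GC offset and replicate block, 0.0657 with at least 10 counts in every library and 0.337 with autosomal protein-coding genes only. Groups of 3 were not searched for single outlying samples.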

How the results depend on the processing

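Among the single genes named, 1302 values under alternatives kept their direction and their side of the call limits (adjusted p and 1.5-fold), 102 lost the call, 1 gained it and 14 changed sign. Testing against the fold limit itself with glmTreat gave 171 calls, 81 higher and 90 lower, since that test asks more of each gene. All other alternatives gave counts of calls within 1.5 times those reported, with 882 to 1632 calls (439 to 882 higher and 402 to 750 lower) when 1 library was left out.

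The interaction count was 1 with all libraries, 19 with DESeq2, 293 with no filter on low counts, 2 with the length and GC offset and replicate block, and 0 to 5 when 1 library was left out. Without Wnt9bKO 2, and without both Wnt9bKO 2 and DKO 3, which were chosen after seeing the data, it was 2. It was 0 in edgeR with at least 10 counts in every library (1198 genes at an unadjusted p under 0.05) and with autosomal protein-coding genes only (1322 genes). The cause of these shifts was not tested.

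With the replicate block, 1257 genes were called, 647 higher and 610 lower, and the interaction count was 2, without *Cdk5rap1* (adjusted p = 0.0946). Each library deviated most like its own number in the other group (r = 0.11, 0.08 and 0.09 across genes), which is a hint from the data and not from the design.

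The sign of *Rspo2* turned without DKO 3 (−0.44), within a range of −0.44 to 0.88, and that of *Msx2* turned without DKO 3 (−0.26), within −0.26 to 0.31. *Msx1*, at −0.0023 with all libraries, turned positive with DESeq2 (0.0007), RLE factors (0.0002), upper-quartile factors (0.0082), no filter (0.0044), only the 6 libraries (0.0202), the offset (0.0463), the offset with replicate block (0.0087) and autosomal protein-coding genes only (0.0107), with −0.28 to 0.17 when 1 library was left out. Calls were lost most often for *Rax*, in 10 alternatives, *Draxin*, in 9, and *Lhx2*, in 7.

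Genes under about 3 counts per library could not be compared at this depth, and a gene that was not called is not shown to be equal in the groups.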
